A study of Mus musculus with 4 samples.

Results

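The HoxC cluster is the row of Hox genes on mouse chromosome 15, and its promoters were described here by the binding of Ring1B, the ubiquitin ligase subunit of Polycomb repressive complex 1 (PRC1). Its members were taken by gene name: every probe named Hoxc followed by a number, ordered by position. This gave 8 promoters (Hoxc13, Hoxc12, Hoxc11, Hoxc10, Hoxc9, Hoxc8, Hoxc6 and Hoxc5) of 17649 in all, and 318 of the 237185 probes of the array design that carries them, called design 2. The probes covered chr15:102743943-102844504, about 101 kb, in positions as the files give them. Their genome build was not given in the sources used here.

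The study set fibroblasts homozygous for the point mutation Phc2 L307R against wild-type fibroblasts. Both were mouse embryonic fibroblasts of the strain C57BL/6, primary cells taken at embryonic day 12.5 and used at passage 2. Ring1B-bound DNA (Cy5) and input DNA (Cy3) were hybridised together to promoter arrays, and the measure is the log2 ratio of immunoprecipitate over input, centred on the median of each array. Of 4 arrays in all, 1 Phc2 L307R array and 1 wild-type array carry the HoxC probes, so no value here has a replicate and no test was possible. How many embryos or cultures stood behind an array is not stated in the labels, the arrays hold no measure of RNA by which the cell type could be checked, and the genotype rests on the labels. The Phc2 L307R arrays and the wild-type arrays were scanned on different days, so scan day and genotype cannot be told apart. A lower ratio in all cells and a loss in some of the cells cannot be told apart either.

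Hox genes encode homeodomain transcription factors that give segments along the body axis their identity, and their order along the chromosome follows the order of the body regions they pattern. Polycomb complexes keep Hox genes silent where they should not be expressed. Ring1B places ubiquitin on histone H2A within PRC1, and Phc2, a further subunit of PRC1, has a SAM domain that joins with others into chains. The comparison asks how Ring1B binding differs in cells with the altered Phc2.

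All 8 HoxC promoters carried Ring1B in both genotypes, at most of their probes. Stretches of 5840 to 11247 bp at 4 of the 7 gaps between neighbouring genes held no HoxC probe, and further genes of the cluster were not analysed here. A promoter was summarised by its window of 3 neighbouring probes with the highest mean over both genotypes, and was called bound at a window value of at least 1 (log2). In Phc2 L307R fibroblasts 8 of 8 HoxC promoters were bound, where 40.2% of the 8736 promoters of the design were, and in wild type 8 of 8 were bound, where 45.2% were. As a background count, the lowest window reached -1 at 9.32% of promoters in Phc2 L307R and 2.86% in wild type. Of the 318 single probes, 265 (83.3%) reached 1 in Phc2 L307R and 273 (85.8%) in wild type. Over all named probes of the design these shares were 13.1% in Phc2 L307R and 13.8% in wild type.

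The breadth varied along the cluster. Hoxc6, which is used at forelimb level, had 96.8% of its 31 probes at or above 1 in Phc2 L307R and 87.1% in wild type. Hoxc11, which acts in the posterior trunk and hindlimb with the other genes of its number, had 92.9% in Phc2 L307R and 95.2% in wild type. Hoxc8, a gene of the lower thoracic region, had 64.1% in Phc2 L307R and 71.8% in wild type, and Hoxc5, a neck-level gene, had 69.6% in Phc2 L307R and 60.9% in wild type. Hoxc8 and Hoxc5 were thus the least covered in both genotypes, Hoxc8 lowest in Phc2 L307R and Hoxc5 lowest in wild type. Among 6239 promoters of the design with at least 20 probes, the median share of probes at or above 1 was 7.14% in Phc2 L307R and 7.69% in wild type. A share as large as that of the least covered HoxC promoter was found at 120 of them (1.92%) in Phc2 L307R and 160 (2.56%) in wild type.

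**Figure D1:**
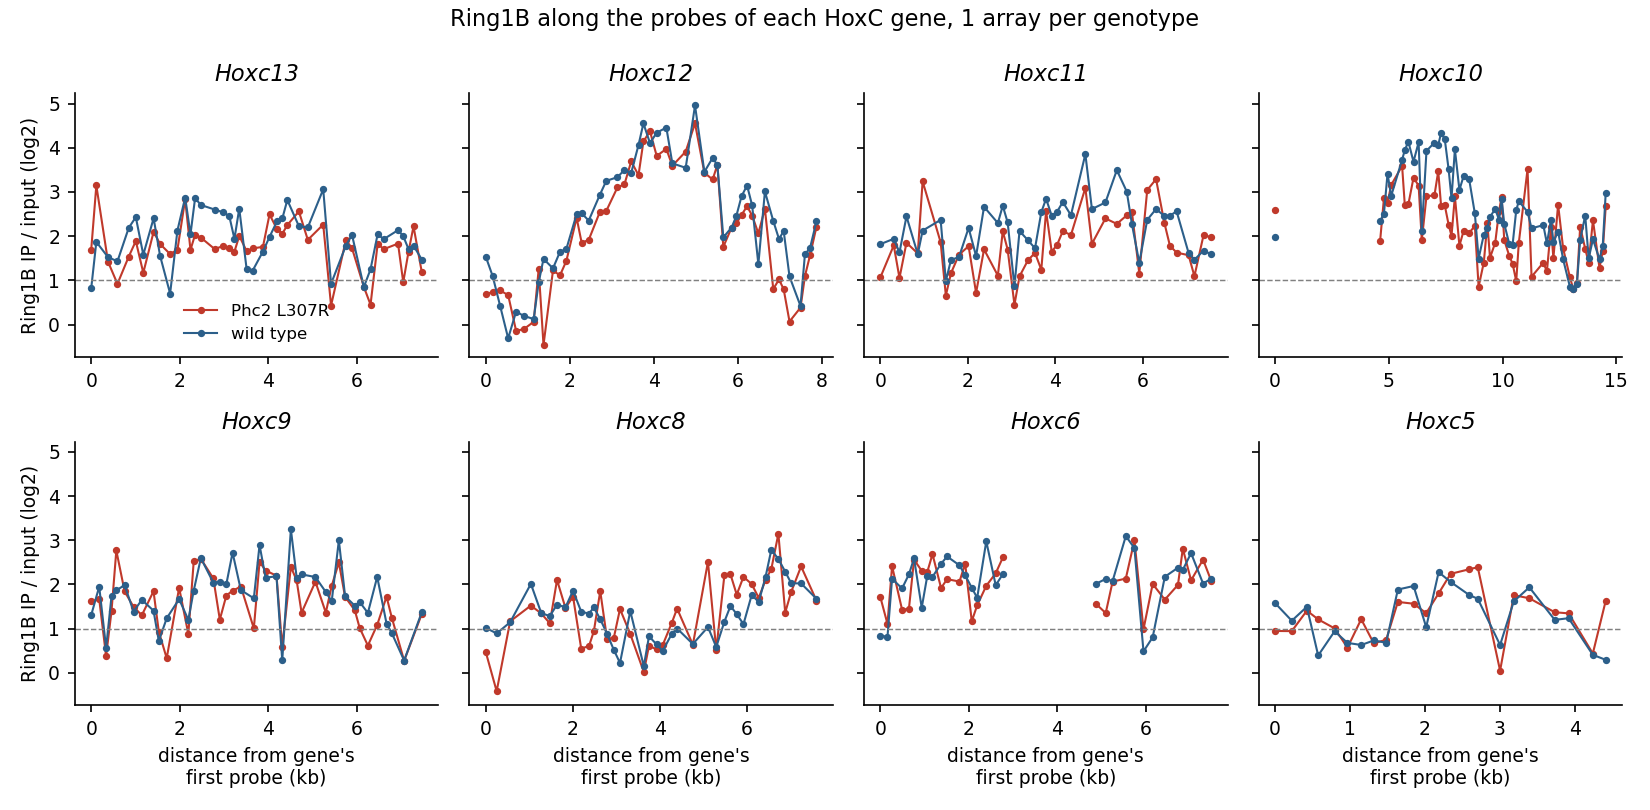
Ring1B immunoprecipitate over input (log2, vertical axis) at every probe of the 8 HoxC genes against the distance from the gene's first probe in kb (horizontal axis, a different length in each panel), with Phc2 L307R in red and wild type in blue, 1 array each; lines break where probes lie more than 1 kb apart and the dashed line marks 1. Hoxc12 forms a single high peak in both genotypes, the red line lies below the blue along much of the peak of Hoxc10, and the lines of Hoxc8, Hoxc6 and Hoxc5 cross.

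The enrichment ended outside the cluster. The 10 flanking promoters, 5 on each side, had 36 of 242 probes (14.9%) at or above 1 in Phc2 L307R and 41 (16.9%) in wild type, close to the share over the whole design. Of these flanking probes 0 reached 3 in either genotype. Of the HoxC probes 26 did in Phc2 L307R, where 0.686% of named probes did, and 39 in wild type, where 0.799% did. The nearest measured neighbours were Calcoco1, a transcriptional coactivator gene 189 kb before the first HoxC probe, with a window of 1.12 in Phc2 L307R and 0.86 in wild type, and Smug1, a DNA repair glycosylase gene 145 kb after the last, with 0.64 in Phc2 L307R and 0.80 in wild type. Atp5g2, which encodes a subunit of the mitochondrial ATP synthase, was the highest of the 10 with 2.38 in Phc2 L307R and 1.88 in wild type. In Phc2 L307R its window lay above those of Hoxc13, Hoxc9 and Hoxc5, and in wild type it lay below every HoxC window. Its mean over all probes was 0.97 in Phc2 L307R and 0.93 in wild type, below that of every HoxC promoter in either genotype. The distance over which the enrichment ended cannot be read, since no named probe of this design lay between the cluster and these neighbours.

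**Figure D2:**
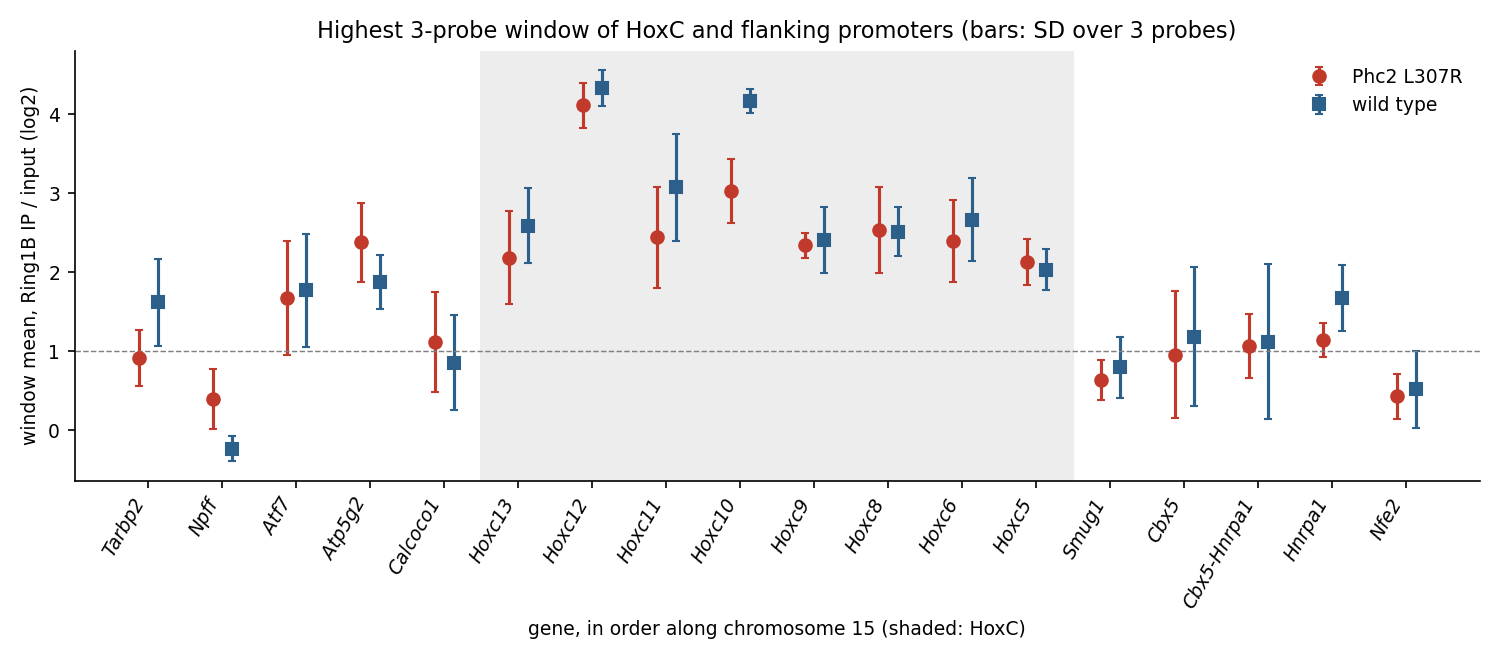
Window value (log2 immunoprecipitate over input, vertical axis) of the HoxC promoters (shaded) and the 5 nearest promoters on each side, in order along chromosome 15, with Phc2 L307R as red circles and wild type as blue squares; bars are the SD over the 3 probes of the window and the dashed line marks 1. Hoxc12 and Hoxc10 stand highest in both genotypes, and the points of Hoxc10 lie farthest apart among the HoxC promoters.

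The level of binding was highest at the posterior genes Hoxc12 and Hoxc10. Hoxc12, at the posterior end beside Hoxc13, had a window (chr15:102763167-102763542) of 4.11 in Phc2 L307R and 4.33 in wild type (SD over its 3 probes 0.28 and 0.22 in the same order). It ranked 39 of 8736 promoters in Phc2 L307R and 50 in wild type. Hoxc10, which with its paralogues represses rib formation in the lumbar region, had 3.02 (SD 0.40) in Phc2 L307R and 4.17 (SD 0.15) in wild type, and ranked 122 in Phc2 L307R and 56 in wild type. Only these windows exceeded 3 in Phc2 L307R, and Hoxc11 joined them in wild type; a window of at least 3 was found at 1.44% of promoters in Phc2 L307R and 1.55% in wild type.

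The other 6 promoters lay close together. Their Phc2 L307R windows ran between 2.13 at Hoxc5 and 2.53 at Hoxc8, and their wild-type windows between 2.03 at Hoxc5 and 3.08 at Hoxc11. The SD over the 3 probes of these windows was 0.16 to 0.63 in Phc2 L307R and 0.26 to 0.68 in wild type, so neighbours in this order do not stand apart beyond the spread between probes. Hoxc5 was the lowest of the cluster in both genotypes, at rank 555 in Phc2 L307R and 669 in wild type.

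Hoxc10 was the only HoxC promoter called lower in Phc2 L307R. The size needed for a call was a window difference of 1 (log2), that is 2-fold, at a bound promoter, with the 3 probes all to the same side. By this rule 1 of 8 HoxC promoters was lower, against 2.08% of the 4432 bound promoters of the design, and 0 of 8 were higher, against 1.62%. All 8 had a mean level of at least 2 over both genotypes, and among promoters at that level 4.84% were lower and 2.27% higher. The 3 window probes of Hoxc10 (chr15:102792008-102792360) read 2.92, 3.47 and 2.68 in Phc2 L307R and 4.11, 4.06 and 4.34 in wild type. Every Phc2 L307R probe of this window lay below every wild-type probe. The difference was -1.15 (SD over the probes 0.54), or 2.21-fold less in Phc2 L307R. In this window the immunoprecipitate signal averaged 9632 in Phc2 L307R and 20860 in wild type, and the input signal averaged 1247 in Phc2 L307R and 1262 in wild type, on arrays that were not scaled to each other. The input means hide unequal probes: at the third probe the input was 1401 in Phc2 L307R and 963 in wild type, and at the other two it was lower in Phc2 L307R.

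The lower values of Hoxc10 spanned its main peak and were not spread evenly over its probes. In a row of 20 neighbouring probes (chr15:102790587-102794234, 3648 bp) each was lower in Phc2 L307R, by 0.14 to 1.66 (log2). Their mean was 2.48 in Phc2 L307R and 3.42 in wild type. The other 33 probes of the gene averaged 1.92 in Phc2 L307R and 2.13 in wild type, a difference of -0.20. The row was picked as the longest with 1 sign, so its size is a description. Of all 53 Hoxc10 probes, 13 were lower by at least 1 and 0 were higher by as much, and 6 probes reached 3 in Phc2 L307R against 16 in wild type.

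The highest point of Hoxc10 also lay elsewhere in the Phc2 L307R array than in wild type. The highest window of the Phc2 L307R array was chr15:102789947-102790644, where the genotypes differed little, with 3.17 in Phc2 L307R and 3.35 in wild type. The highest window of the wild-type array was chr15:102792175-102792522, with 2.95 in Phc2 L307R and 4.20 in wild type, 2228 bp further on. Taking the window from the Phc2 L307R array alone therefore gives a difference of only -0.19 for Hoxc10, and the call is lost. It is also lost with loess normalisation within arrays (-0.90) and with the mean over all probes of the gene (-0.48).

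Hoxc11 had a smaller window difference than Hoxc10 and also held a long row of lower probes. Input was above background at 1 of the 3 probes of its window in Phc2 L307R and at 3 of 3 in wild type. Its window (chr15:102781930-102782443) was 2.44 (SD 0.63) in Phc2 L307R and 3.08 (SD 0.68) in wild type, a difference of -0.64 (SD 0.24) that did not reach the size rule. A row of 21 neighbouring probes (chr15:102779261-102782923) was lower throughout in Phc2 L307R, with a mean of 1.77 against 2.46 in wild type, while the other 21 probes differed by -0.10 on average. This row too was picked as the longest with 1 sign, and such a choice by itself sets a row apart from the rest. At Hoxc13 the row so picked held 10 probes with a mean difference of -0.57, against -0.08 over the other 32.

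Hoxc13, which is needed for hair and nail formation, had a window (chr15:102746066-102746345) of 2.19 (SD 0.59) in Phc2 L307R and 2.59 (SD 0.48) in wild type, a difference of -0.40. Hoxc12 differed by -0.22 at its peak, with 14 probes at or above 3 in Phc2 L307R and 17 in wild type. Over the whole gene 39 of its 47 probes were lower in Phc2 L307R, with a mean difference of -0.32. Of these probes 4 were lower by at least 1 and 0 were higher by as much. Both profiles of Hoxc12 followed each other most closely in the cluster (Pearson r = 0.93 over 47 probes of the same pair of arrays, a description across probes). Hoxc9, which patterns thoracic motor neurons, had a window (chr15:102803821-102804263) of 2.34 (SD 0.16) in Phc2 L307R and 2.41 (SD 0.42) in wild type. The noise of single probes, estimated as the SD from successive probes, was 0.41 on the Phc2 L307R array and 0.34 on the wild-type array, which puts the noise of a 3-probe window difference at 0.31. That figure is an SD that takes the probes as independent, so windows without a change can exceed it too. It holds no spread between cultures. The differences of Hoxc10, Hoxc11 and Hoxc13 were larger than it and those of the other 5 promoters were not, which is no call. How many promoters of the design lay beyond it was not counted.

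The windows of the anterior genes differed by at most 0.27 in size, on both sides of 0. Hoxc8 had a window (chr15:102819818-102820171) of 2.53 (SD 0.55) in Phc2 L307R and 2.51 (SD 0.31) in wild type, a difference of 0.02. Hoxc6 had a window (chr15:102837548-102838101) of 2.40 (SD 0.52) in Phc2 L307R and 2.67 (SD 0.53) in wild type, a difference of -0.27. Hoxc5 had a window (chr15:102842218-102842683) of 2.13 (SD 0.29) in Phc2 L307R and 2.03 (SD 0.26) in wild type, a difference of 0.10. In each of these windows the probe values of the genotypes overlapped. Beside its window, Hoxc8 had a row of 6 probes (chr15:102818872-102819705) that were all higher in Phc2 L307R, with a mean of 2.02 against 1.41 in wild type, and 4 of the 8 HoxC probes that were higher by at least 1 belonged to Hoxc8. This row was likewise picked as the longest with 1 sign. At each of its probes input was lower in Phc2 L307R, and at some it was not well above background there. At the first probe of the row input was 399 in Phc2 L307R and 685 in wild type. In the value tables, a second version of the values, the same row had a mean difference of -0.32.

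**Figure D3:**
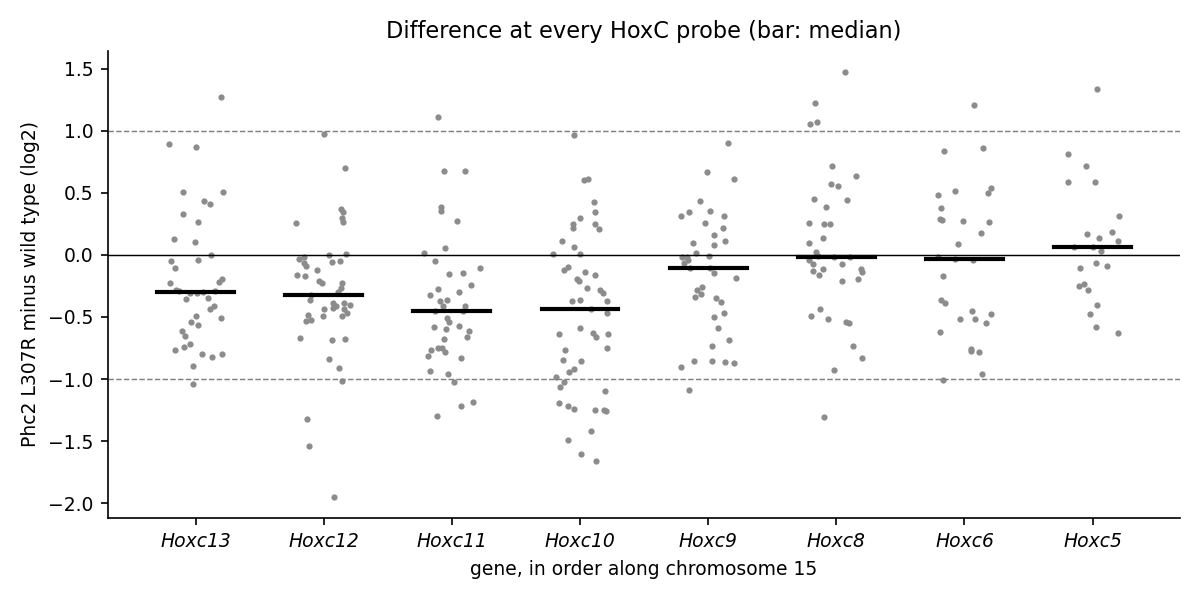
Difference in log2 immunoprecipitate over input, Phc2 L307R minus wild type (vertical axis), at each of the 318 HoxC probes by gene in order along chromosome 15 (horizontal axis; sideways scatter within a gene has no meaning); bars are medians and dashed lines mark 1 in either direction. The medians of Hoxc13 through Hoxc9 lie below 0 and those of Hoxc8, Hoxc6 and Hoxc5 lie near it, with points on both sides of 0 at every gene.

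Probes were also counted apart for the posterior and the anterior genes, by a split at the posterior class of Hox genes (numbers 9 and above) that was drawn with these values known. Of the 225 probes of Hoxc9 to Hoxc13, 168 (74.7%) were lower in Phc2 L307R, with a median difference of -0.33, and 23 were lower by at least 1 against 2 that were higher by as much. Of the 93 probes of Hoxc8, Hoxc6 and Hoxc5, 49 (52.7%) were lower, with a median of -0.02, and 2 were lower by at least 1 against 6 higher by as much. Of the 23 posterior probes lower by at least 1, 13 belonged to Hoxc10. The split was not matched for level. In wild type 38 posterior probes and 1 anterior probe reached 3, and the design's probes at a mean level of 3 and above had a median difference of -0.32. Over the whole cluster 217 of 318 probes (68.2%) were lower, where 55.7% of all named probes of the design were. Of these 318, 25 (7.86%) were lower by at least 1, where 2.25% of named probes were, and 8 (2.52%) were higher by at least 1, where 2.66% were. Most named probes lie at low levels. At a mean level of 1 to 2, 9 of 130 HoxC probes (6.92%) were lower by at least 1, against 4.25% of the design's probes at that level. At 2 to 3 the share was smaller for HoxC, with 6 of 112 (5.36%) against 7.57%, and at 3 and above it was 7 of 29 against 232 of 1545. For probes lower by at least 1, the excess over probes of like level was thus smaller at 1 to 2 than that over all named probes. At 2 to 3 there was none, and at 3 and above HoxC again had the larger share, on few probes. The share of probes lower by any amount was larger for HoxC at each of these levels. It was 68.5% against 55.6% at 1 to 2, 68.8% against 52.2% at 2 to 3, and 79.3% against 67.6% at 3 and above. With the value tables, 308 of the 318 probes were lower, where 54.5% of named probes were, and the medians were -1.19 for the posterior and -0.87 for the anterior genes. Taken by the same levels, 125 of 130 HoxC probes at 1 to 2 were lower with these tables, against 13942 of the design's 22866. At 2 to 3 it was 112 of 112, against 3255 of 4876, and at 3 and above 29 of 29, against 1416 of 1545. Neighbouring probes share DNA fragments, so these counts are not independent observations.

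Promoters with high Ring1B levels tended to differ downward over the whole design, and the HoxC values are set beside promoters of like level. The median difference of the 8 HoxC windows was -0.24, with 6 of 8 below 0, against -0.11 over the bound promoters of the design. It was -0.60 once both arrays were scaled to a common spread, -0.04 with loess and 0.08 with windows taken from the Phc2 L307R array. Of the HoxC promoters, 6 had a mean level between 2 and 3, with a median difference of -0.17, against -0.00 over the 546 promoters of the design at that level. Hoxc10, at -1.15, lay between 3 and 4, where 61 promoters had a median of -0.33 and 9 were called lower. Hoxc12, at -0.22, lay above 4, where 54 promoters had a median of -0.32 and 7 were called lower.

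**Figure D4:**
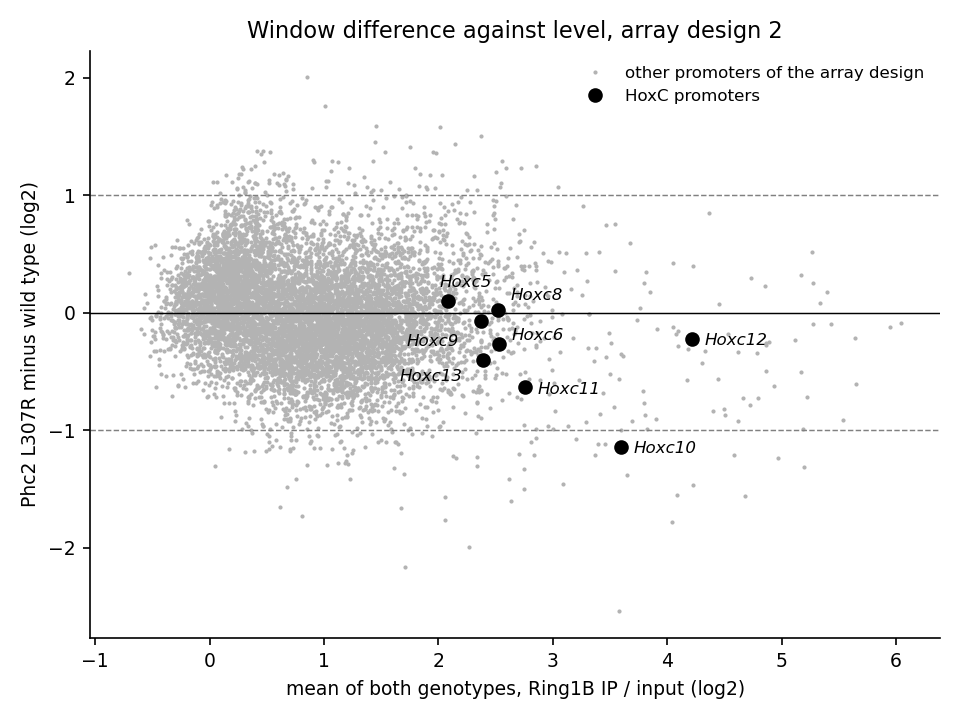
Window difference, Phc2 L307R minus wild type (log2, vertical axis), against the mean window level of both genotypes (log2, horizontal axis) for the HoxC promoters (black, named) and the other promoters of the same array design (grey); dashed lines mark the size of 1 that a call needs. Hoxc10 is the only black point beyond a dashed line, and the other 7 lie between the lines.

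The input channel was dimmer on the Phc2 L307R array. Input was well above background at 221 of the 318 HoxC probes (69.5%) in Phc2 L307R and at 261 (82.1%) in wild type, while the immunoprecipitate was so at all of them on both arrays. Over the 218 HoxC probes measured above background in both channels on both arrays, 167 (76.6%) were lower in Phc2 L307R, with a median difference of -0.31. Of these 218 probes 1 was higher by at least 1, against 8 of all 318. The shares over all probes of the design under the same filter were not counted, so these HoxC shares have no background. Among bound promoters of the design, leaving out dim probes took the share called higher from 1.62% to 0.349%. The share called lower went from 2.08% to 2.41%. Keeping only probes with input above background on the dimmer Phc2 L307R array also leaves out probes whose low input raises the Phc2 L307R ratio, and the part of the dim input in the HoxC differences was not tested. The window of Hoxc8 is the least certain of the cluster, since its input was above background at 0 of 3 probes in Phc2 L307R and at 1 of 3 in wild type.

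The wild-type values exist in a second version that gives larger differences throughout the cluster. The deposited value table of the Phc2 L307R array equalled its scanner ratios apart from a constant (r = 0.9995 over all probes), whereas for wild type the table and the scanner ratios correlated at 0.891. What was done to make the wild-type table is not known. At HoxC probes the wild-type table lay above the scanner ratios by a median of 0.91 (log2), against -0.01 over all named probes of the design. Over the whole design this offset grew with level. At probes of mean level 1 to 2 it was 0.89 for HoxC and 0.115 for the design, and at 2 to 3 it was 0.96 and 0.49. At 3 and above it was 1.00 for HoxC and 1.15 for the design. By these values 7 of 8 HoxC promoters were lower in Phc2 L307R, against 8.53% of bound promoters, and 0 were higher, against 0.498%. Hoxc10 had 3.03 in Phc2 L307R and 5.32 in wild type, a difference of -2.29, the largest of the cluster by these values too. The difference of Hoxc11 was -1.62. Hoxc5, with 2.33 in Phc2 L307R and 2.78 in wild type, was the promoter not called. Windows were chosen anew in the value tables, and at Hoxc5 this also moved the Phc2 L307R value, which was 2.13 in the scanner files. At Hoxc11 the value tables gave another window too (chr15:102782389-102782923), with 2.385 in Phc2 L307R against 2.44 in the scanner files. The Hoxc11 differences of -1.62 and -0.64 are therefore not from the same window. Both versions share the Phc2 L307R array, so neither is a repeat of the other.

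**Figure D5:**
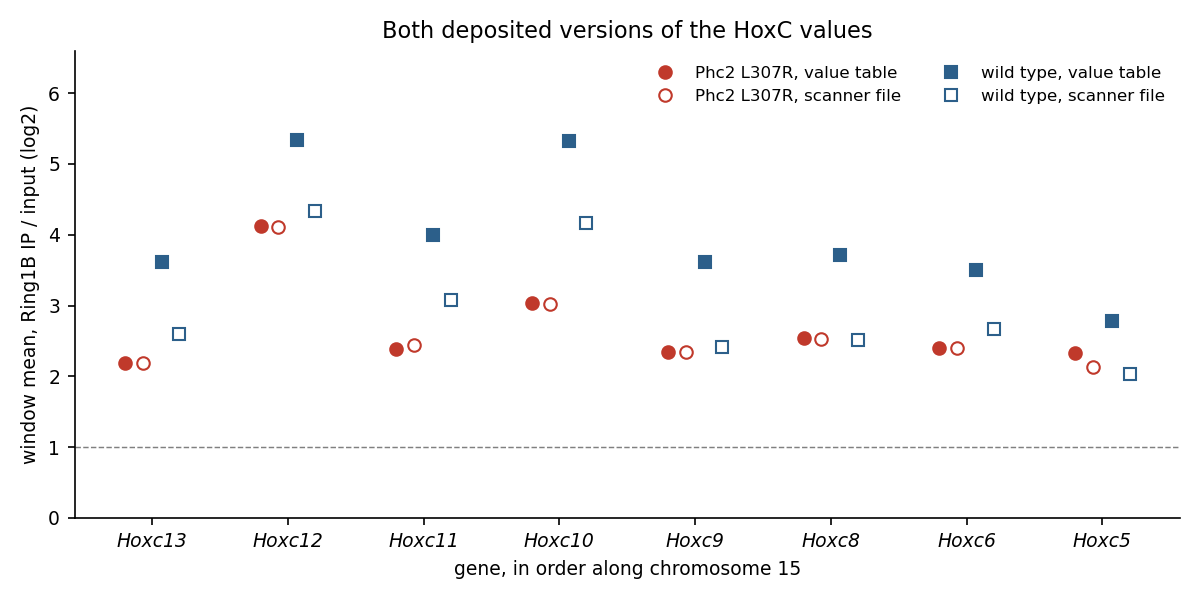
Window value (log2 immunoprecipitate over input, vertical axis) of each HoxC promoter in order along chromosome 15, from the value tables (filled) and the scanner files (open), with Phc2 L307R as red circles and wild type as blue squares. The red points of a gene nearly coincide except at Hoxc5, where the tables give another window. The tables also give another window at Hoxc11, with a smaller shift of the red points. Each filled blue square lies above its open one.

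Beside the HoxC genes, values are given for some of the genes of the same number in the other Hox clusters, and not for all of them. Hoxb13, on the same arrays as Hoxc13, was called lower, with 2.32 in Phc2 L307R and 3.38 in wild type. Hoxb6 was called lower too, with 2.36 in Phc2 L307R and 3.82 in wild type, while Hoxc6 was not called. By the value tables the differences were alike in size, -1.08 at Hoxb6 and -1.10 at Hoxc6. Hoxb9 and Hoxb5, on the same arrays, were not called, with differences of -0.30 and -0.60. By the value tables these were -1.58 at Hoxb9 and -2.24 at Hoxb5. For the 7 HoxB promoters the median difference was -0.77, with 3 of 7 called lower, against -0.24 and 1 of 8 for HoxC. By the value tables it was -2.02 with 7 of 7 lower for HoxB, against -1.25 and 7 of 8 for HoxC. HoxA and HoxD were measured on the other pair of arrays, so their values only stand side by side with those of HoxC. The median difference was 0.81 over 10 HoxA promoters and -0.21 over 8 HoxD promoters. By the value tables it was -0.30 for HoxA and -1.43 for HoxD. Hoxa10 had 4.64 in Phc2 L307R and 3.81 in wild type, and Hoxd10 had 4.47 in Phc2 L307R and 4.38 in wild type. Neither was called, and where Hoxc10 differed by -1.15 they differed by 0.83 and 0.10. By the value tables these differences were -0.16 for Hoxa10 and -1.11 for Hoxd10, so their sign depends on the wild-type version. Hoxa11 had 3.96 in Phc2 L307R and 4.03 in wild type, and Hoxd11 had 3.21 in Phc2 L307R and 3.32 in wild type, both closer together than the values of Hoxc11.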

How the data were processed

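Ring1B immunoprecipitate and input DNA of Phc2 L307R and wild-type fibroblasts were compared on 4 arrays of 2 colours. Intensity values of each spot and a log10 ratio of Cy5 over Cy3 were deposited in the scanner files, quantified per the file headers with Agilent Feature Extraction 10.7.3.1. The deposited value tables hold the authors' log10 ratio; their origin for wild type is unknown. Here the scanner ratios were converted to log2 without control and outlier spots, with saturated spots kept, and centred on each array's median. Windows held 3 probes within 2000 bp. With 1 array per genotype, fixed size rules replaced tests. Precision is limited by the number of arrays. Windows and calls were tried on simulated data with independent probe noise. The simulated shifts covered whole promoters and were larger than the Hoxc10 difference, so calls near the cut-off were not covered. Named genes are all HoxC genes found, some Hox genes of the same number, flanking genes, and the extremes of a cofactor list. The members, lists and splits were chosen with earlier results of these data known. Alternatives were the value tables, normexp background correction (offset 50), loess, scaled arrays, a dim-probe filter, other windows and summaries, and other cut-offs. The planned promoter sequence features were not run, because no promoter sequence of the 8 members was used here. Calculations used Python 3.11.15, numpy 2.4.6, pandas 2.3.3, scipy 1.17.1, R 4.3.3 with limma 3.58.1, and matplotlib 3.10.9.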

Additional observations from a re-analysis of the deposited data

How the results depend on the processing

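Across 11 alternatives the HoxC promoters stayed bound, 8 of 8 in each genotype, except that wild type had 7 with normexp background correction, and none was called higher. The count of lower promoters, 1 with the reported settings, was 7 with the value tables, 2 with a size rule of 1.5-fold, and 0 with loess, with the window taken from the Phc2 L307R array or with the mean over all probes. The median difference of -0.24 was -1.25 with the value tables. Hoxc10 was below 0 in all 11 alternatives (-2.29 to -0.19) and called lower in 8, and Hoxc13 was below 0 in all 11 (-1.43 to -0.19). The bound cut-off of 1.5 and the 1.5-fold rule do not change a difference and could not undo the Hoxc10 call. The dim-probe filter left the Hoxc10 difference at -1.15. These settings are therefore no separate readings of Hoxc10. The sign of the other 6 changed with the setting: Hoxc12 ranged between -1.23 and 0.05, Hoxc11 -1.62 and 0.40, Hoxc9 -1.27 and 0.25, Hoxc8 -1.18 and 0.42, Hoxc6 -1.10 and 0.14, and Hoxc5 -0.46 and 0.56. Over the whole design 92 of 4432 bound promoters (2.08%) were lower and 72 (1.62%) higher. The number bound changed with the setting, so shares of it are given, lower before higher. They were 8.53% and 0.498% with the value tables, 4.3% and 0.802% with scaled arrays, and 1.85% and 1.5% with loess. With normexp (2137 bound) they were 5.99% and 0.421%, and with the dim-probe filter (3148 bound) 2.41% and 0.349%. Windows of 5 probes gave 1.38% and 0.589%, wild-type windows 3.62% and 0.368%, and Phc2 L307R windows 0.707% and 3.04%. The mean over all probes (478 bound) gave 1.26% and 0%. A bound cut-off of 1.5 gave 2.97% and 2.15%, and the 1.5-fold rule 11.5% and 6.39%. The cause was not tested. No paired analysis was possible because each genotype had 1 array per design.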

Other observations

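Hox proteins bind DNA together with cofactors of the Pbx, Meis and Pknox (Prep) families, and their promoters were read in the same way. Of 12 names listed, which include older names of the same genes, 9 were found over both array designs. A name not found is therefore no sign of a gene missing from the arrays. Of these 9, 6 were bound in Phc2 L307R and 6 in wild type, 1 was lower and 0 were higher, with a median difference of -0.14. Over all 17649 promoters of both designs, 39.3% were bound in Phc2 L307R and 45.4% in wild type, and of the bound ones 3.02% were lower and 1.64% higher, with a median difference over all promoters of -0.05. Meis1 was the lower one, with 3.09 in Phc2 L307R and 4.09 in wild type. Its difference was the lowest of the list and lay close to the size needed for a call. Pbx3 had the highest difference, 0.37, with 1.96 in Phc2 L307R and 1.59 in wild type. By the value tables the differences were -2.45 at Meis1, -2.10 at Pknox2 and -2.08 at Mrg1, an older name of Meis2 (Pknox2 and Mrg1 were picked after their values were seen), where the scanner files gave -0.68 for Pknox2 and 0.09 for Mrg1, so these differences depend on the wild-type version.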
